A study of Homo sapiens with 12 samples.

Results

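The MHC class I antigen presentation genes were followed by RNA-seq across 4 stable lines of HCT116, a human colorectal cancer cell line. The 9 genes were taken from the count table by symbol, among 28395 genes in all: the heavy chain genes HLA-B, HLA-C, HLA-E and HLA-F, the light chain gene B2M, the peptide transport and loading genes TAP1, TAP2 and TAPBP, and the transactivator gene NLRC5. All 9 were among the 15853 genes that reached a CPM (count scaled to the library total) of 0.5 in at least 3 libraries and were tested. Each line had 3 libraries of polyA RNA. The HCT116-EV line (pcDNA in the sample titles) and the HCT116-EHF line were geneticin-resistant clones that carried the empty plasmid and an expression plasmid for the ETS factor EHF. The HCT116-CDX1 line (CDX in the titles) was transduced with a retrovirus for the homeobox factor CDX1, which also encodes GFP, and sorted for GFP, so it had no geneticin selection and its own empty virus is not among the 4 lines. The HCT116-EHF+CDX1 line was described in the study's methods as geneticin-resistant clones of the CDX1 line after transfection with EHF. All lines were grown in DMEM-F12 medium with serum, without an added cytokine in the labels. For its RNA-seq clustering the study's text gives a number of biological replicates that is lower than the 3 libraries of each line used here. Neither it nor the labels say that the 3 libraries of a line came from separate cultures. The p-values thus measure the spread between these libraries, which may be technical.

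The total count lay between 13523007 and 74186741 per library. EHF transcript stood at 237 to 335 CPM in EV, 19034 to 19639 in EHF, 11.9 to 12.99 in CDX1 and 17115 to 19890 in EHF+CDX1 libraries. CDX1 transcript was at most 0.04996 CPM in EV and EHF libraries, 487 to 558 CPM in CDX1 and 5105 to 5635 CPM in EHF+CDX1 libraries, so the line with both factors carried more CDX1 transcript than the line with CDX1 alone. EV replicate 3 stood apart from the other EV libraries over the whole table, with a chi-square of 294 and 323 for each degree of freedom against them, where the remaining pairs of libraries of a line gave 3.21 to 47.2. Changes of the 9 genes against EV are therefore given with and without that library, in the text or in the plot of changes against EV. The CDX1 line also differed most widely: in the test used here, 21.3% of all genes were induced and 23.3% repressed in CDX1 against EV cells. Although described as derived from the CDX1 line, the EHF+CDX1 line had 22.3% of genes induced and 18.7% repressed against it, and 2.49% and 0.189% against the EHF line.

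MHC class I molecules show peptides from inside the cell to CD8 T cells and to receptors on natural killer cells. The proteasome cuts proteins into peptides, the TAP1 and TAP2 transporter carries these into the endoplasmic reticulum, tapasin (TAPBP) holds the transporter and the empty class I molecule together, and the loaded heavy chain with beta-2-microglobulin (B2M) travels to the cell surface. Transcription of many of these genes is driven through the SXY module of their promoters, which is bound by the RFX complex, by CREB and ATF factors and by NF-Y, and on which NLRC5 acts as a coactivator, and through elements for interferon regulatory factors and NF-kB.

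Of the 9 genes, 7 lie in the MHC region of chromosome 6 in the RefSeq annotation of GRCh38.p14. They run from HLA-F at chr6:29723434-29738532 through HLA-E at chr6:30489509-30494194, HLA-C at chr6:31268749-31272092, HLA-B at chr6:31353875-31357179, TAP2 at chr6:32821831-32838739 and TAP1 at chr6:32845209-32853704 to TAPBP at chr6:33299694-33314078. B2M lies at chr15:44711517-44718145 and NLRC5 at chr16:56989557-57083520. Reads were counted on exons. The strand setting of the counting is not given in the sources used here, so reads of HLA-F and HLA-F-AS1, of TAP1 and PSMB8-AS1 and of TAPBP and RGL2, which overlap, could have been shared. The heavy chain genes are close copies of each other and differ between people, and only uniquely mapped reads were kept, so their counts are less certain than those of the other members.

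Promoter sequences from RefSeq, on GRCh38.p14 and from 250 bases before to 50 bases after the start of each gene, were found for 7 of the 9 genes, with 2 entries for TAP1. HLA-E and NLRC5 had none in that table. The stretches of 150 bases printed here show where the letters of the SXY module and of the interferon and NF-kB elements stand before the start. Capitals mark matches on either strand to the core of the X2 box (TGACG), the inverted CCAAT of the Y box (ATTGG), an interferon-stimulated response element (ISRE, GAAANNGAA) and a kappaB element (GGGNNTTCC). The first 3 sequences run from base -190 to base -41 before the start of the genes for 2 heavy chains and the light chain.
HLA-B (chr6:31357220-31357369, minus strand): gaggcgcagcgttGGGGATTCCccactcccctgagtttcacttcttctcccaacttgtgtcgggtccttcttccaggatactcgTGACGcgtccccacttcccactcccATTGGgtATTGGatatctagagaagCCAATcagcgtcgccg
HLA-C (chr6:31272133-31272282, minus strand): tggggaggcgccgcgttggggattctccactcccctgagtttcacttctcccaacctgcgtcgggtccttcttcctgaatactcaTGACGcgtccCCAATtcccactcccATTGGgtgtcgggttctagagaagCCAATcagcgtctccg
B2M (chr15:44711327-44711476, plus strand): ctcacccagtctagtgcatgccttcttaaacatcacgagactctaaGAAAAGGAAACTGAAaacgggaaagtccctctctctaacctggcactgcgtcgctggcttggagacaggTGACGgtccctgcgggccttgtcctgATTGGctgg

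The last bases before the start, from -150 to -1, are shown for the genes of TAP2 and tapasin, 2 of the genes of peptide transport and loading, whose windows hold ISRE matches.
TAP2 (chr6:32838740-32838889, minus strand): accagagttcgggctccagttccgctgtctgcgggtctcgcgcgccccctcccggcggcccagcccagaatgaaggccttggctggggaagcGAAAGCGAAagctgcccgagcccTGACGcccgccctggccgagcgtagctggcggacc
TAPBP (chr6:33314079-33314228, minus strand): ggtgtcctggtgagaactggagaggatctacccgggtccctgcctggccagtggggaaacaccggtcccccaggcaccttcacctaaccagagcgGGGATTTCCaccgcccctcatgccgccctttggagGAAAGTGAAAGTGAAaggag

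The X2 core was followed by an inverted CCAAT on the same strand, with first bases 25 apart, in HLA-B and HLA-C, and 26 apart in B2M. Such a pair with a spacing of 20 to 30 bases, a search added after the positions were seen, occurred in 0.242% of the 35116 promoters of the table. Taken alone, each of these short strings is frequent: TGACG was found in 24.6% of all promoters and in 4 of the 7 member genes, and ATTGG in 34.6% and in 5. An ISRE match occurred in 8.11% of all promoters and in 5 of the 7 genes (HLA-F, B2M, TAP1, TAP2 and TAPBP), and a kappaB match in 6.58% and in 3 (HLA-B, B2M and TAPBP). For the factors expressed in these lines, the ETS string CCGGAAG was present in 10.3% of all promoters and in 1 member gene, TAP1, in its second entry, and the CDX string CNATAAA in 9.73% of all promoters and in 0 of the 7. The element for dimeric STAT factors (GAS, TTCNNNGAA) was found in 7.66% of all promoters and in 1 of the 7, the second entry of TAP1. These are matches of letters in one window of each gene and do not show binding.

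Per exon length, the order of the genes was much the same in the 4 lines. In the deposited log2 RPKM values, which are quantile-normalized between libraries, HLA-C was the highest in each line, with means of 8.48 ± 0.44 (SD, n = 3) in EV and 8.67 ± 0.04 in EHF+CDX1 cells. In EHF+CDX1 cells B2M followed at 7.92 ± 0.05 and HLA-B at 7.69 ± 0.09. HLA-E at 6.28 ± 0.09 and TAPBP at 5.63 ± 0.02 came next, ahead of TAP1 at 4.91 ± 0.05 and TAP2 at 4.86 ± 0.05, which did not differ beyond their spread. HLA-F stood at 2.84 ± 0.10, and NLRC5 was the lowest gene in every line, from -1.13 ± 0.09 in CDX1 to 1.12 ± 0.06 in EHF+CDX1 cells. TAPBP stood level with HLA-E in EV cells (5.69 ± 0.47 against 5.69 ± 0.63) and beneath it in CDX1 cells (4.47 ± 0.18 against 6.49 ± 0.07), and the mean of B2M was above that of HLA-B in EHF and EHF+CDX1 and beneath it in EV and CDX1 cells.

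**Figure D1:**
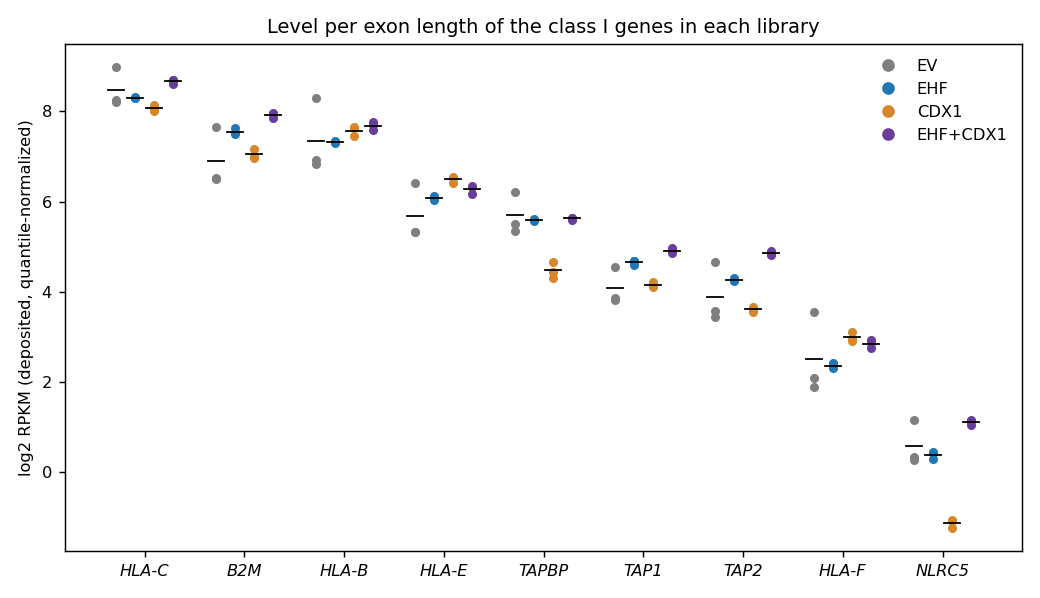
Deposited log2 RPKM of the 9 genes (horizontal axis, ordered by the EHF+CDX1 line) in each library. Points are libraries, colours are lines and bars are line means (n = 3). HLA-C is highest and NLRC5 lowest in each line. The CDX1 points lie beneath those of the other lines for TAPBP and NLRC5, and by a smaller distance for HLA-C.

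EV replicate 3 was the highest of the 3 EV libraries in 9 of the 9 genes. Relative to the mean of EV replicates 1 and 2 its CPM was 2.72 times as high for HLA-B, 2.83 for HLA-F, 2.07 for HLA-E, 1.70 for HLA-C and 2.11 for B2M. The ratio was 1.57 for TAP1, 2.17 for TAP2, 1.67 for TAPBP and 1.86 for NLRC5, while the median log2 ratio over all genes tested was 0.0548. In the same library the factors that bind the SXY module were not raised as a list, with a median ratio of 0.865 over 8 genes, and the immunoproteasome genes had a median ratio of 0.900 over 5. MHC class II genes had a median ratio of 1.82 over 9 tested genes, and other class I-like genes of 1.77 over 8. It was 1.74 over 6 genes of peptide trimming and loading, and 2.24 over 6 epithelial markers, which ran from 0.658 to 3.28. Genes of the MHC region with other functions had a median ratio of 0.844 over 14, and interferon and NF-kB regulators of 1.09 over 11. Of all genes tested, 16.6% had a ratio above the lowest of the heavy chain genes. What sets this library apart was not tested.

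**Figure D2:**
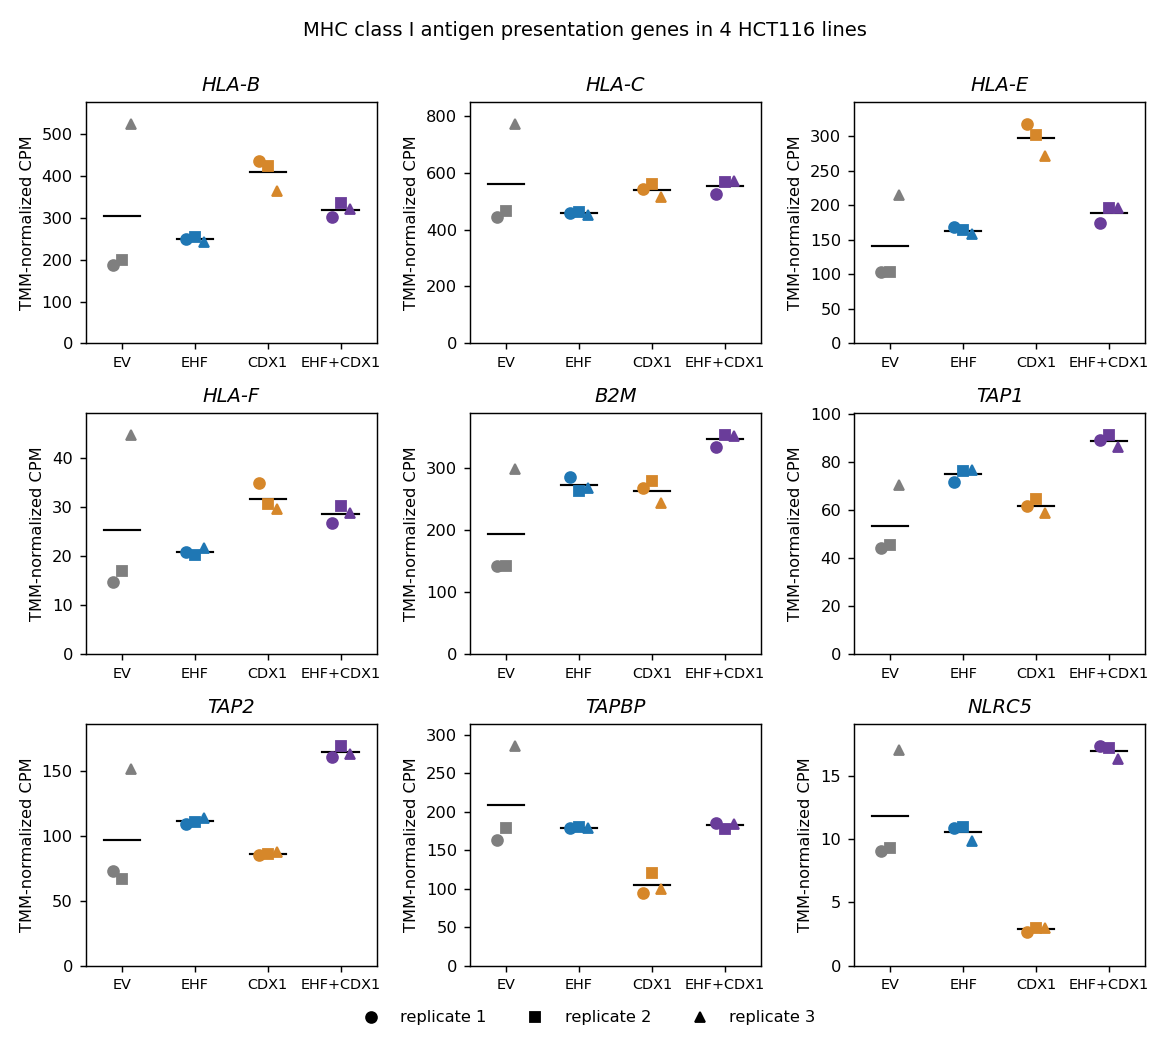
TMM-normalized CPM (vertical axis, from 0) of each gene in each of the 12 libraries, by line. Points are libraries, marker shapes are replicate numbers, which do not pair libraries across lines, and bars are line means. EV replicate 3 (grey triangle) is the highest EV library in every panel, and the other lines are tight.

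Of the 4 heavy chain genes 1, HLA-E, was called with all libraries, and that in the CDX1 line. HLA-E, which codes for the non-classical molecule recognised by the NKG2A receptor of natural killer cells, had 104, 104 and 215 CPM in the EV libraries, 168, 164 and 158 in EHF, 318, 302 and 271 in CDX1 and 175, 195 and 197 in EHF+CDX1. All 3 CDX1 libraries lay above the libraries of the other lines, and EV replicate 3 lay above those of EHF+CDX1. HLA-E was induced in CDX1 against EV cells, with a log2 fold change of 1.07 ± 0.23 (SE) and an adjusted p of 0.019 in edgeR's test against a 1.5-fold change. Without EV replicate 3 it was 1.51 ± 0.07 (adjusted p = 1.2e-10, edgeR). The call with all libraries was lost in 9 of 24 alternative analyses, among them the limma analyses of quantile-normalized values, which gave 0.82 and 0.80, scaling by library size alone (0.76), and the fits without EV replicate 1 (0.89) or EV replicate 2 (0.89). HLA-E in EHF+CDX1 against CDX1 cells was lower by the test against no change (log2 fold change of -0.65 ± 0.23, edgeR adjusted p = 0.024) and did not pass the 1.5-fold test (adjusted p = 0.32). In bulk RNA, a different level in each cell and a different share of cells with the transcript cannot be told apart, here and for the other genes.

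HLA-B, a classical heavy chain that presents peptides to CD8 T cells, had 187, 198 and 525 CPM in EV, 249, 253 and 243 in EHF, 437, 425 and 365 in CDX1 and 302, 335 and 322 in EHF+CDX1 libraries. The libraries of EHF, CDX1 and EHF+CDX1 did not overlap with each other, but the EV libraries spanned all of them. Against EV the log2 fold change in CDX1 cells was 0.43 ± 0.31 (edgeR adjusted p = 0.66), and without EV replicate 3 it was 1.08 ± 0.07 (adjusted p = 5.3e-07). In EHF cells the value changed sign with that library, from -0.29 ± 0.31 to 0.36 ± 0.07 without it, and neither passed the 1.5-fold test.

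HLA-F, a non-classical heavy chain that can bind killer cell receptors without peptide, followed HLA-B closely. It had 14.6, 16.9 and 44.6 CPM in EV, 20.8, 20.1 and 21.5 in EHF, 34.9, 30.6 and 29.5 in CDX1 and 26.8, 30.2 and 28.7 in EHF+CDX1 libraries. Its log2 fold change in CDX1 against EV cells was 0.31 ± 0.32 with all libraries and 1.01 ± 0.10 without EV replicate 3 (edgeR adjusted p of 0.83 and 0.00012). HLA-C, the classical heavy chain read by the KIR receptors, moved least in CPM. Its line means were 561 ± 183 CPM in EV (446, 465 and 772), 457 ± 4.01 in EHF, 539 ± 24.2 in CDX1 and 554 ± 24.4 in EHF+CDX1 cells (SD, n = 3). On the deposited log2 RPKM scale this did not hold. There the line means of HLA-C ran from 8.07 in CDX1 to 8.67 in EHF+CDX1 cells, and those of HLA-B from 7.32 in EHF to 7.69 in EHF+CDX1 cells. Without EV replicate 3 the edgeR log2 fold change of HLA-C against EV lay between 0.00 ± 0.06 in EHF and 0.28 ± 0.06 in EHF+CDX1 cells, under the 1.5-fold limit throughout.

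B2M, the light chain that every class I heavy chain needs, had 142, 142 and 299 CPM in EV, 286, 264 and 269 in EHF, 268, 279 and 245 in CDX1 and 335, 354 and 353 in EHF+CDX1 libraries. The EHF+CDX1 libraries were the highest of all 12, and EV replicate 3 lay above each EHF and CDX1 library. The log2 fold change in EHF+CDX1 against EV cells was 0.83 ± 0.23, past the test against no change (edgeR adjusted p = 0.016) but not past the 1.5-fold test (adjusted p = 0.31). Without EV replicate 3 it was 1.29 ± 0.06 (adjusted p = 5.7e-09), and the values for EHF and CDX1 cells were 0.94 ± 0.06 (adjusted p = 3.3e-05) and 0.89 ± 0.06 (adjusted p = 2.8e-05). B2M was thus called induced in each of the 3 lines against EV without EV replicate 3, and in none of them with all libraries.

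The transporter genes were highest with both factors. TAP1 had 44.1, 45.4 and 70.4 CPM in EV, 71.7, 76.4 and 76.6 in EHF, 61.6, 64.8 and 58.8 in CDX1 and 89.4, 91.3 and 86.2 in EHF+CDX1 libraries. All EHF and EHF+CDX1 libraries lay above the 3 EV libraries, EV replicate 3 included. The log2 fold change was 0.49 ± 0.15 in EHF (edgeR adjusted p = 0.028 against no change) and 0.74 ± 0.15 in EHF+CDX1 against EV cells (adjusted p = 0.0028 against no change), and neither passed the 1.5-fold test, where the adjusted p was 1 and 0.33. Without EV replicate 3 both were called induced, at 0.74 ± 0.07 and 0.99 ± 0.07.

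TAP2, the partner of TAP1 in the transporter, had 72.6, 66.9 and 151 CPM in EV, 109, 110 and 114 in EHF, 85.0, 86.0 and 87.8 in CDX1 and 161, 169 and 163 in EHF+CDX1 libraries. The EHF+CDX1 libraries were the highest, and the CDX1 libraries lay beneath those of EHF. Between EHF+CDX1 and CDX1 cells the log2 fold change was 0.93 ± 0.24, past the test against no change (edgeR adjusted p = 0.0042) and short of the 1.5-fold test (adjusted p = 0.062), which it passed without EV replicate 3 (0.93 ± 0.05, adjusted p = 5.4e-07). That comparison holds no EV library, so the estimate stayed and the spread shared by all lines became smaller.

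TAPBP, coding for tapasin, was lowest in the CDX1 line. It had 163, 179 and 285 CPM in EV, 179, 180 and 178 in EHF, 94.5, 121 and 99.9 in CDX1 and 185, 178 and 184 in EHF+CDX1 libraries. The CDX1 libraries were the lowest of all, and EHF and EHF+CDX1 libraries stood together. TAPBP was repressed in CDX1 against EV cells, with a log2 fold change of -0.99 ± 0.18 (edgeR adjusted p = 0.013 in the 1.5-fold test), and of -0.71 ± 0.08 without EV replicate 3 (adjusted p = 0.041). The call was lost in 3 of 24 alternatives: DESeq2 (adjusted p = 0.088), the fit without CDX1 replicate 1 (-0.91, edgeR adjusted p = 0.052) and the fit without the replicates numbered 3 (-0.67, edgeR adjusted p = 0.14).

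NLRC5, the class I transactivator, had the widest range of the 9 genes. It had 9.04, 9.28 and 17.1 CPM in EV, 10.8, 10.96 and 9.87 in EHF, 2.67, 2.96 and 2.98 in CDX1 and 17.4, 17.2 and 16.4 in EHF+CDX1 libraries. The CDX1 libraries, with at most 122 reads, were far beneath all others, the EHF+CDX1 libraries were at the level of EV replicate 3, and EHF lay close to EV replicates 1 and 2. NLRC5 was repressed 4.15-fold in CDX1 against EV cells (log2 fold change of -2.05 ± 0.22, edgeR adjusted p = 3e-05), and -1.68 ± 0.12 without EV replicate 3 (adjusted p = 2.2e-08). It was 5.92-fold higher in EHF+CDX1 than in CDX1 cells (log2 fold change of 2.57 ± 0.22, edgeR adjusted p = 4.5e-06). Both calls were kept in 24 of 24 alternatives, with log2 fold changes from -2.37 to -1.68 and from 2.25 to 2.92. In EHF against EV cells the change was -0.18 ± 0.21, or 0.20 ± 0.11 without EV replicate 3, and was not called. The change in EHF+CDX1 against EV cells was 0.51 ± 0.21 and not called (adjusted p = 1), and 0.89 ± 0.11 and called without that library (adjusted p = 0.011).

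The interaction takes the change from CDX1 to EHF+CDX1 cells and subtracts the change from EV to EHF cells, both on the log2 scale. It compares separately made lines, and the EHF+CDX1 line differed from the CDX1 line in CDX1 level and in selection as well as in EHF, so these cannot be told apart in it. For NLRC5 it was 2.74 ± 0.30 (edgeR adjusted p = 4e-05), 2.37 ± 0.15 without EV replicate 3, and it was called in 23 of 23 alternatives. For TAPBP it was 1.02 ± 0.25 (adjusted p = 0.042), and that call was lost in 15 of 23 alternatives, the fit without EV replicate 3 among them (0.73 ± 0.10, adjusted p = 0.056). HLA-E had the lowest interaction, -0.86 ± 0.32 with all libraries (adjusted p = 0.17), and -1.30 ± 0.09 without EV replicate 3, where it was called repressed (adjusted p = 2e-07) and NLRC5 was the 1 induced gene. Called interactions were frequent: 20.2% of all genes tested were induced and 18.0% repressed with all libraries, and 23.3% and 24.4% without that library.

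The counts over the 9 genes show how far the EV comparisons rest on 1 library. In EHF against EV cells 0 genes were called in the 1.5-fold test by edgeR, DESeq2 or either limma analysis, 0 had an unadjusted p under 0.05 in it, and 1 (TAP1) was higher in the test against no change. Of all genes, 5.68% were induced, 2.65% repressed and 14.9% higher against no change. When EV replicate 3 was left out, 2 genes were induced (B2M and TAP1) and 0 repressed, against 9.51% and 3.46% of all genes. In CDX1 against EV cells 1 gene was induced and 2 were repressed, beside 21.3% and 23.3% of all genes. Leaving out EV replicate 3 gave 4 induced genes (HLA-B, HLA-E, HLA-F and B2M), against 26.3% of all genes, and 2 repressed ones, TAPBP and NLRC5, against 24.8%.

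In EHF+CDX1 against EV cells edgeR, DESeq2 and both limma analyses called 0 of the 9 genes at 1.5-fold, 0 had an unadjusted p under 0.05 in the edgeR test, and 3 (B2M, TAP1 and TAP2) were higher in the test against no change. The shares over all genes were 7.30% induced, 3.13% repressed and 16.9% higher against no change. With that EV library left out, 7 of the 9 were induced, all but HLA-C and TAPBP, and 0 repressed, against 11.2% and 4.28% of all genes. The median log2 fold change over the 9 genes moved from 0.42 to 0.86, while that over all genes tested moved from -0.03 to 0.02. In EHF+CDX1 against EHF cells 0 genes were called by edgeR, DESeq2 or either limma analysis, 0 had an unadjusted p under 0.05 in the 1.5-fold test, and 2 had one in the test against no change. The libraries of EHF+CDX1 lay above all EHF libraries for 8 of the 9 genes, all but TAPBP, where 27.4% of all genes did so, and the log2 fold changes ran from 0.03 to 0.69. In that comparison 2.49% of all genes were induced and 0.189% repressed.

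**Figure D3:**
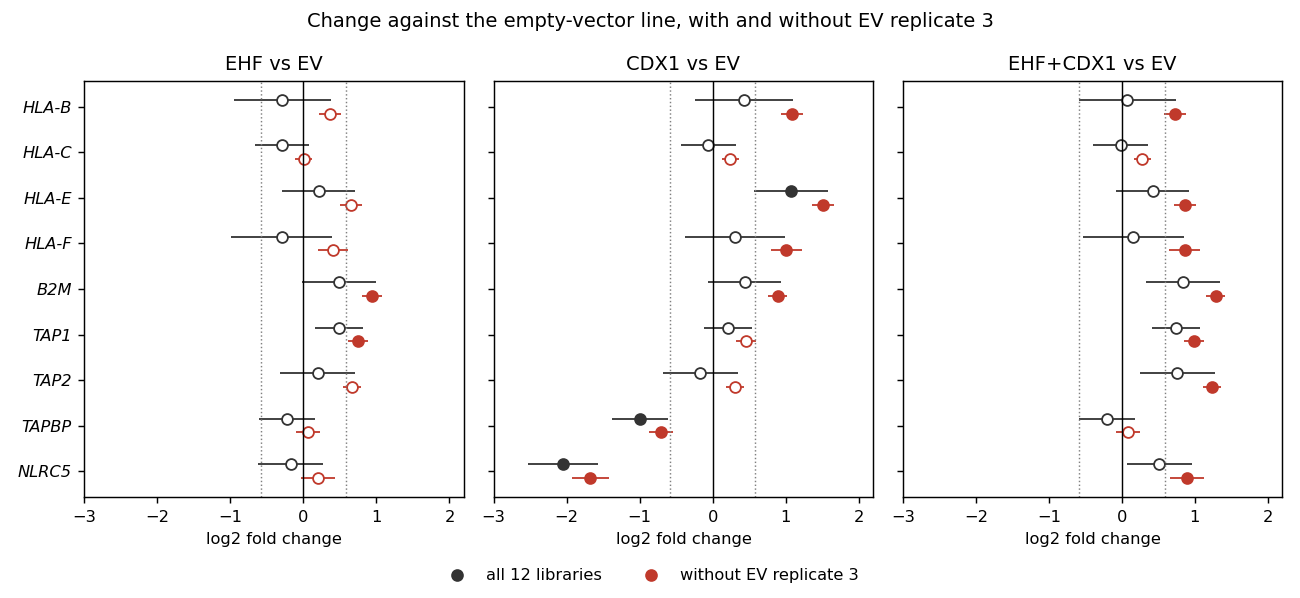
Log2 fold change of each gene against EV cells in EHF (left), CDX1 (middle) and EHF+CDX1 cells (right), with 95% confidence intervals, from the fit to all 12 libraries (black) and without EV replicate 3 (red). Filled points passed the 1.5-fold test and dotted lines mark 1.5-fold. In EHF+CDX1 cells 0 points are filled with all libraries and 7 without that library.

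In EHF+CDX1 against CDX1 cells NLRC5 was the 1 gene of the 9 called, and 0 were repressed, beside 22.3% of all genes induced and 18.7% repressed. TAPBP (0.80 ± 0.18, edgeR adjusted p = 0.094) and TAP2 lay close to the threshold and were called by limma on voom values, on the deposited log2 RPKM and by edgeR without EV replicate 3 (25.8% of all genes induced), which gave 3 calls each. The 4 heavy chain genes had log2 fold changes from -0.65 to 0.04, with 0 calls and 1 of them, HLA-E, at an unadjusted p under 0.05 in the test against no change. The CDX1 libraries had TMM factors of 0.799 to 0.845, against 0.973 to 1.09 in the other lines. Scaling by library size alone moved the median of all genes by -0.34 in CDX1 against EV and by 0.36 in EHF+CDX1 against CDX1 cells. Under that scaling TAP1 in the first comparison and HLA-B and HLA-F in the second changed sign, none of them called under either scaling.

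Ratios within a library do not depend on such scaling. HLA-E relative to B2M was 0.719 to 0.730 in the 3 EV libraries, so that EV replicate 3 was not apart from the others on this scale, and 0.588 to 0.619 in EHF, 1.08 to 1.18 in CDX1 and 0.522 to 0.558 in EHF+CDX1 libraries. HLA-B relative to B2M was 1.32 to 1.75 in EV and 1.49 to 1.63 in CDX1 libraries, and 0.870 to 0.959 in EHF and 0.901 to 0.947 in EHF+CDX1 libraries. Both lines that carry EHF thus had less heavy chain transcript per light chain transcript than both lines that do not, and the same held for HLA-C and HLA-F. HLA-C relative to B2M was 2.58 to 3.26 in EV and 2.01 to 2.10 in CDX1, against 1.60 to 1.74 in EHF and 1.57 to 1.62 in EHF+CDX1 libraries. TAPBP relative to B2M was highest in EV, at 0.953 to 1.25, and lowest in CDX1, at 0.352 to 0.432. NLRC5 relative to B2M was 0.0570 to 0.0651 in EV, 0.0367 to 0.0415 in EHF, 0.00996 to 0.0122 in CDX1 and 0.0465 to 0.0518 in EHF+CDX1 libraries, and the lines did not overlap. These ratios show unequal change of gene and B2M, and no member can be taken as unchanged.

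**Figure D4:**
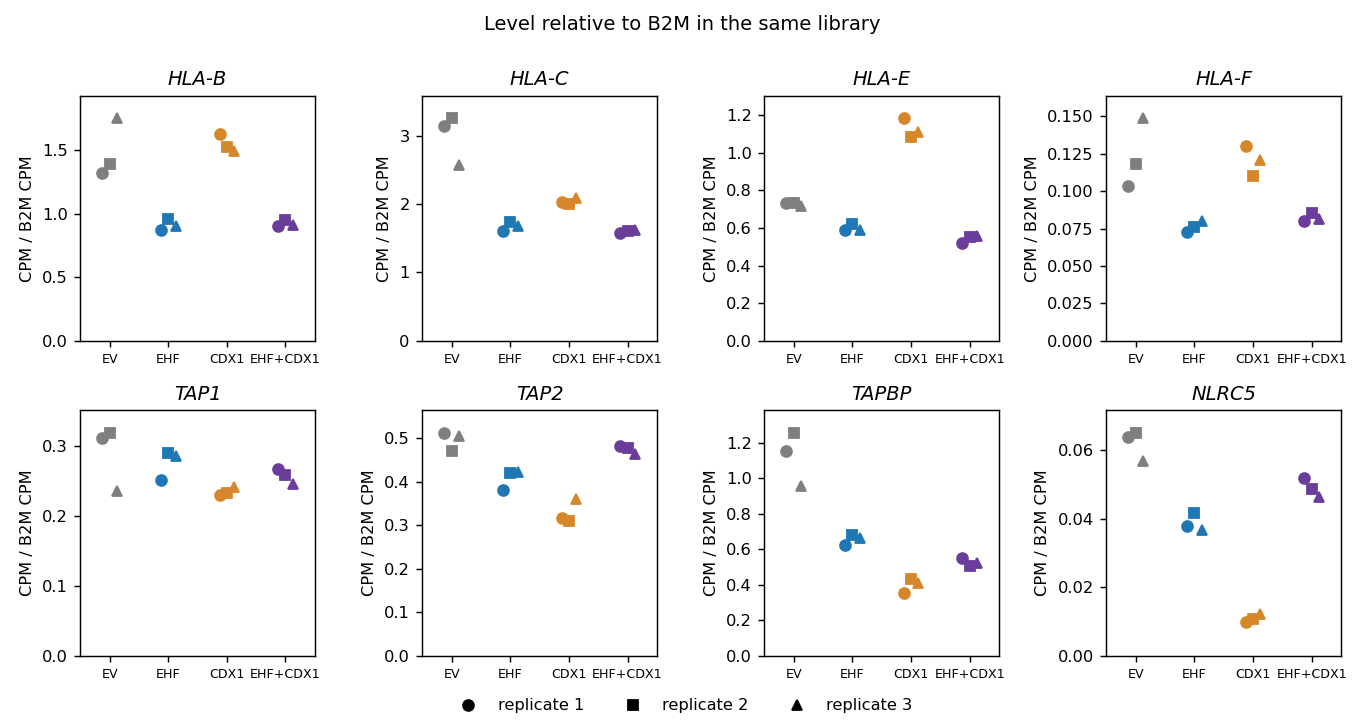
CPM of each gene divided by that of B2M in the same library (vertical axis, from 0), by line. Points are libraries and marker shapes are replicate numbers. The 3 EV points of HLA-E nearly coincide, and for HLA-B, HLA-C, HLA-E and HLA-F the EHF and EHF+CDX1 points lie beneath those of EV and CDX1.

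The genes of the immunoproteasome and its activator were induced in the EHF+CDX1 line against the CDX1 line. The immunoproteasome, made when PSMB8, PSMB9 and PSMB10 replace the standard catalytic subunits, and its PA28 activator (PSME1 and PSME2) form a list of 5 genes, all tested. All 5 were induced in EHF+CDX1 against CDX1 cells, with a median log2 fold change of 1.52 beside 0.04 over all genes, of which 22.3% were induced. In CDX1 against EV cells 1 was induced (PSMB8) and 2 were repressed (PSMB10 and PSME1), beside 21.3% and 23.3% of all genes, and in EHF+CDX1 against EV cells 2 were induced (PSMB8 and PSMB9), beside 7.30%. The PSMB8 call in CDX1 cells was lost in 5 of 23 alternatives, and the PSME2 call in EHF+CDX1 against CDX1 cells in 3 of 24. These counts were the same without EV replicate 3, except that PSMB9 was also repressed in CDX1 cells.

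PSMB9 had 1.59, 1.70 and 1.43 CPM in EV, 4.84, 6.39 and 6.54 in EHF, 0.88, 1.01 and 0.67 in CDX1 and 11.2, 13.1 and 11.8 in EHF+CDX1 libraries. The 4 lines did not overlap. The log2 fold change of PSMB9 was 1.93 ± 0.19 in EHF (edgeR adjusted p = 0.00011) and 2.94 ± 0.19 in EHF+CDX1 against EV cells (adjusted p = 1.2e-06), and without EV replicate 3 it was 1.87 ± 0.20 and 2.87 ± 0.20. Its neighbour TAP1, which lies head to head with it, changed by 0.49 and 0.74 in the same comparisons. PSMB8 had 0.22 to 0.28 CPM in EV, 0.27 to 0.70 in EHF, 0.54 to 0.81 in CDX1 and 5.29 to 6.29 in EHF+CDX1 libraries, so it was low outside the line with both factors, where its log2 fold change was 4.48 ± 0.33 against EV (adjusted p = 2.2e-06), and 4.50 ± 0.37 without EV replicate 3. For the standard subunits PSMB5, PSMB6 and PSMB7, 0 of 3 were called in any of these comparisons, with medians of 0.30 in CDX1 and 0.35 in EHF+CDX1 against EV cells. EV replicate 3 was low in these 3 genes, with a median ratio of 0.379 to the other EV libraries.

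Among genes for peptide trimming and loading in the endoplasmic reticulum (6, all tested), ERAP2, an aminopeptidase that trims peptides, was induced in EHF+CDX1 against EV cells (log2 fold change of 2.62 ± 0.44, edgeR adjusted p = 0.0026), from 0.38 to 2.08 CPM in EV to 6.49 to 7.67. ERAP1 and ERAP2 were induced in EHF+CDX1 against CDX1 cells, at 1.21 ± 0.33 and 2.12 ± 0.42 (adjusted p of 0.035 and 0.0029), and the ERAP1 call was lost in 11 of 24 alternatives and the ERAP2 call in 1. Of these 6 genes, 1 was thus induced in EHF+CDX1 against EV and 2 against CDX1 cells, beside 7.30% and 22.3% of all genes. The chaperones CALR, CANX and PDIA3 and the tapasin-related TAPBPL gave no call with all libraries. With EV replicate 3 left out, ERAP1 was also induced in EHF and in EHF+CDX1 cells, at 1.02 ± 0.12 and 1.33 ± 0.12. ERAP2 was then induced in all 3 lines, in EHF+CDX1 cells by 3.75 ± 0.30 and thus 13.4-fold instead of 6.15-fold. TAPBPL was induced in CDX1 and EHF+CDX1 cells, and CANX in CDX1 cells. In that fit 9.51% of all genes were induced in EHF, 26.3% in CDX1 and 11.2% in EHF+CDX1 against EV cells.

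The factors that bind the SXY module moved in opposite ways in the CDX1 line. Of the 8 tested, 3 were repressed and 2 induced there against EV, beside 23.3% and 21.3% of all genes. All 3 genes of the RFX complex were repressed in CDX1 against EV cells: RFX5 with a log2 fold change of -1.44 ± 0.10 (edgeR adjusted p = 3.3e-06), RFXAP with -1.97 ± 0.25 (adjusted p = 0.00012) and RFXANK with -1.51 ± 0.16 (adjusted p = 5.2e-05). RFX5 had 59.1 to 61.9 CPM in EV, 76.9 to 81.2 in EHF, 19.9 to 26.2 in CDX1 and 59.4 to 64.2 in EHF+CDX1 libraries. The EV libraries, replicate 3 included, agree closely for this gene, and the values without that library were -1.44, -2.05 and -1.46. ATF1 and NFYC, a subunit of NF-Y, were induced in CDX1 cells, at 1.76 ± 0.10 and 1.002 ± 0.090 (1.77 and 0.92 without EV replicate 3), and CREB1, NFYA and NFYB were not called. The same 3 RFX genes were induced in EHF+CDX1 against CDX1 cells, at 1.46 ± 0.10, 2.10 ± 0.25 and 0.97 ± 0.15, and ATF1 and NFYC were repressed. Of all genes, 22.3% were induced and 18.7% repressed in that comparison. The RFXANK call there was lost in 5 of 24 alternatives and the NFYC call in 3. In EHF and in EHF+CDX1 against EV cells 0 of 8 were called at 1.5-fold, 0 had an unadjusted p under 0.05 in that test, and 3 and 2 had one in the test against no change. Of all genes, 5.68% and 7.30% were induced and 2.65% and 3.13% repressed in these 2 comparisons.

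Among the interferon and NF-kB regulators, IRF9, a subunit of the factor that acts in the type I interferon response, was induced in EHF+CDX1 against CDX1 cells (log2 fold change of 2.04 ± 0.34, edgeR adjusted p = 0.0011) and at the threshold in EHF+CDX1 against EV cells (1.44 ± 0.34, adjusted p = 0.044), where 17 of 24 alternatives lost the call and the fit without EV replicate 3 gave 2.21 ± 0.11. Without that library IRF9 was also induced in EHF against EV cells (1.39 ± 0.11, adjusted p = 1.9e-06). IRF1 and IRF2 were induced in CDX1 against EV cells, at 1.29 ± 0.17 and 1.19 ± 0.12 (1.51 and 1.18 without EV replicate 3), and JAK2 in EHF against EV cells (0.98 ± 0.15, adjusted p = 0.04, lost in 15 of 24 alternatives). Without EV replicate 3 JAK2 was at 1.01 ± 0.16 in EHF cells and was also called in EHF+CDX1 against EV cells (0.94 ± 0.16, adjusted p = 0.034). STAT2 and IFNGR2 passed the test in CDX1 cells without EV replicate 3, at 1.27 ± 0.09 and 0.78 ± 0.07, and JAK1, IFNGR1, NFKB1 and RELA were not called in any comparison with EV. Of all genes, 5.68% were induced in EHF, 21.3% in CDX1 and 7.30% in EHF+CDX1 against EV cells. Without EV replicate 3 these shares were 9.51%, 26.3% and 11.2%. In EHF+CDX1 against CDX1 cells 22.3% were induced with all libraries.

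**Figure D5:**
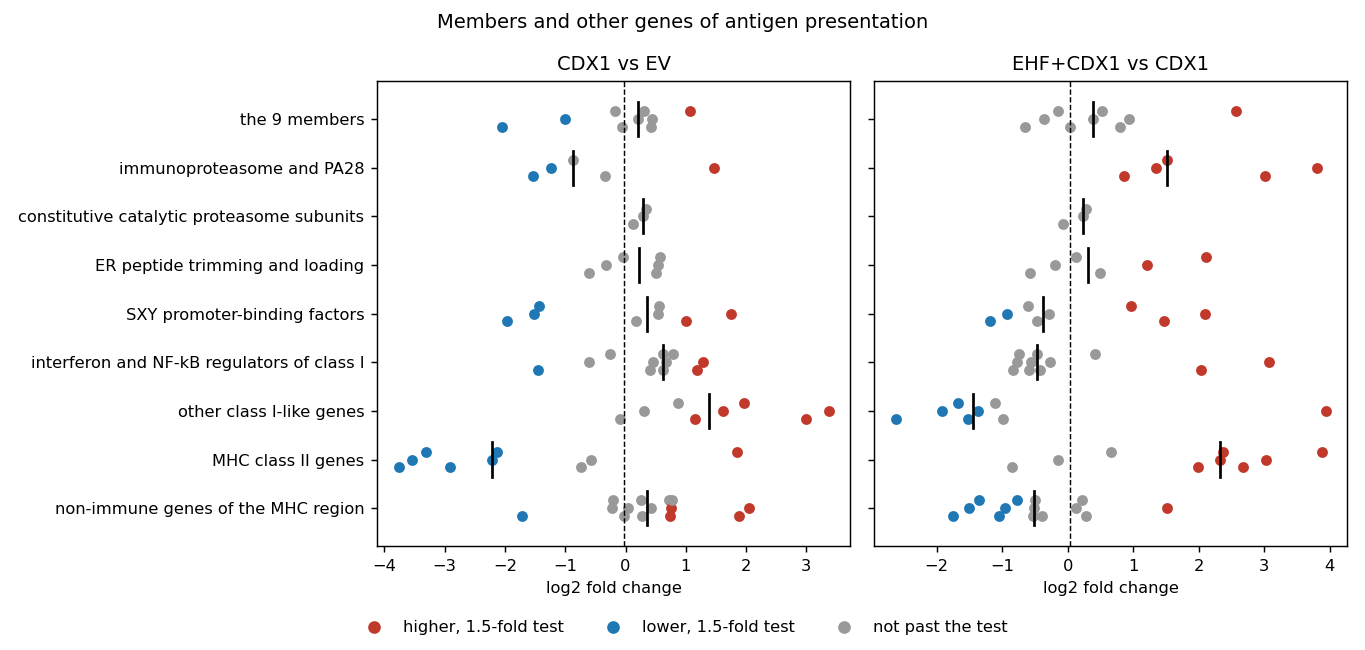
Log2 fold change of the 9 members and of the tested genes of 8 lists in CDX1 against EV cells (left) and EHF+CDX1 against CDX1 cells (right). Points are genes, red and blue passed the 1.5-fold test upwards and downwards, bars are list medians and the dashed line is the median of all genes tested. All 5 immunoproteasome and PA28 genes are red on the right, and 6 class II genes are blue on the left.

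Other class I-like genes that were called in CDX1 against EV cells were induced. Of 9 genes 8 were tested, and 5 were induced in CDX1 against EV cells, HLA-G and the stress ligands MICA, MICB, ULBP2 and ULBP3, which bind the NKG2D receptor, with a median log2 fold change of 1.38 over the 8, beside 21.3% of all genes induced. With all libraries MICB had the largest, 3.37 ± 0.15 (edgeR adjusted p = 1.3e-08). Without EV replicate 3 MICB was at 3.27 ± 0.13, and ULBP2 had the largest, 3.70 ± 0.17. These 5 were repressed in EHF+CDX1 against CDX1 cells, while FCGRT, the class I-like IgG receptor that also pairs with B2M, was induced 3.94 ± 0.23 on the log2 scale. In the fit without EV replicate 3, 7 of the 8 were induced in CDX1 cells, beside 26.3% of all genes. Of the 9 MHC class II genes tested, 6 were repressed in CDX1 against EV cells, beside 23.3% of all genes. HLA-DRB1 was among them (-2.92 ± 0.47, edgeR adjusted p = 0.00042), and 1 gene, CD74, was induced (1.85 ± 0.34, adjusted p = 0.0023). Without EV replicate 3 HLA-DRB1 was at -2.01 ± 0.30, or 4.03-fold lower instead of 7.54-fold, and CD74 at 2.24 ± 0.47. CIITA, the class II relative of NLRC5, was close to the detection limit and not called. These genes were low, with a summed level of 11.4 to 29.3 CPM in EV and 5.38 to 7.73 CPM in CDX1 libraries, and the counts of 6 and 1 were the same without EV replicate 3. Of 14 genes of the MHC region with other functions, 4 were induced and 1 was repressed in CDX1 against EV cells, beside 21.3% and 23.3% of all genes. The largest change among the 3 named by rule was that of DDX39B, an RNA helicase gene, at 2.05 ± 0.21 (2.10 ± 0.30 without EV replicate 3). DDX39B counts were low, with 0.52 to 0.59 CPM in EV and 2.22 to 2.44 CPM in CDX1 libraries. That was at most 32 reads in an EV and 107 in a CDX1 library.

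The profile over the 12 libraries sorted the members into sets. HLA-B and HLA-F had a Pearson correlation of 0.978 in log2 CPM, B2M and TAP1 of 0.940, TAP1 and TAP2 of 0.912, and TAPBP and NLRC5 of 0.902. HLA-E correlated at -0.552 with NLRC5 and at -0.523 with TAPBP. These describe 12 libraries of 4 lines, with EV replicate 3 and the CDX1 libraries among the points. Among 12439 genes whose log2 CPM averaged 1 or more, those most like the mean centred profile of the 9 members were MRPS31P5 (0.961), ZNF587 (0.960), SLC35F5 (0.950), NCR3LG1 (0.949) and HLA-L (0.943). Those most like NLRC5 were SNHG3 (0.987), MESD (0.985) and CEP126 (0.984).

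The libraries carried the markers of epithelial cells and few of leukocytes, which express class I genes strongly. The 6 epithelial markers EPCAM, KRT8, KRT18, CDH1, CLDN4 and CLDN7 were detected in all libraries and summed to 4170 to 4310 CPM in EV, 3620 to 3700 in EHF, 2540 to 3010 in CDX1 and 4000 to 4190 in EHF+CDX1. KRT8 and KRT18 made up most of this sum, and single markers went different ways. EPCAM and CLDN4 had higher means in CDX1 than in EV cells (491 against 265 CPM and 395 against 275), and the others lower ones. For CLDN7 this direction rested on EV replicate 3. Without it the log2 fold change in CDX1 against EV cells was 0.29 ± 0.07 for CLDN7 and -0.17 ± 0.07 for CDH1. KRT8 and KRT18 stayed lower, at -1.28 ± 0.07 and -0.99 ± 0.10. Within EV, CDH1 ran from 129 to 374 CPM, CLDN4 from 156 to 513 and KRT8 from 1619 to 2518. Of 8 leukocyte markers, MS4A1 had 0 reads in 12 of 12 libraries, PTPRC, which marks all leukocytes, at most 6 reads, and CD3E at most 3. The summed level of the 8 was 0.568 to 1.65 CPM in EV, 25.6 to 27.8 in EHF, 11.3 to 14.5 in CDX1 and 33.8 to 34.9 in EHF+CDX1 libraries. It came mostly from CD14, ITGAM and LYZ, the 3 tested, while PTPRC, CD3E, MS4A1 and CD86 did not reach the level for testing. All 3 were induced in EHF+CDX1 against EV cells, beside 7.30% of all genes. Their log2 fold changes were 2.72 for CD14, 4.21 for ITGAM and 7.02 for LYZ, and 3.36, 5.10 and 7.32 without EV replicate 3. ITGAM had 0.24 to 1.25 CPM in EV and 24.6 to 25.9 in EHF libraries.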

How the data were processed

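RNA-seq of 12 libraries from 4 HCT116 lines was analysed. The authors aligned reads to GRCh38 (hg38) with Subread and counted uniquely mapped reads on RefSeq exons with featureCounts, both version 2.0.0 in the submitters' processing notes. They deposited raw counts per gene, and log2 RPKM values made with limma voom, quantile normalization and exon length.

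The counts were fitted with edgeR 4.0.16 under R 4.3.3 (TMM, quasi-likelihood fit to all 12 libraries, genes with at least 0.5 CPM in at least 3 libraries). Induced and repressed genes passed glmTreat with a limit of 1.5-fold, after Benjamini-Hochberg adjustment over 15853 genes to 0.05, and an adjusted p is from that test unless given as against no change. Standard errors were obtained from each log2 fold change and its F statistic. A count of 0 allows up to 3 reads, or 0.0375 to 0.207 CPM, for counting error only. Alternatives used limma 3.58.1, DESeq2 1.42.0, other scalings and filters, a replicate block and each library left out, and their use on the lists was added with the data in view. The edgeR, limma voom and DESeq2 fits to all 12 libraries were first run on simulated counts, for EHF and EHF+CDX1 against EV only. The interaction, the other alternatives and the fits with libraries left out were not simulated. Likeness used log2 CPM with a prior count of 2.

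Named genes were the 9 members, all genes of the immunoproteasome, trimming, SXY and interferon lists, and of each other list the 3 with the largest change in EHF+CDX1 against EV cells. HLA-G, MICA, ULBP3 and the markers were named outside that rule, after their values were seen. An interferon list gene and a leukocyte marker are not reported here by name. The members and lists were chosen with earlier results of these data known.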

Additional observations from a re-analysis of the deposited data

Results flagged for a closer look

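The difference between EHF+CDX1 and CDX1 cells was not the same as that between EHF and EV cells for 2 genes by the test of the difference itself, the interaction in edgeR against a 1.5-fold change. The lines with CDX1 differed in CDX1 transcript (487 to 558 CPM and 5105 to 5635 CPM) and in selection, which cannot be told apart from EHF. For NLRC5 the interaction was 2.74 on the log2 scale: the difference was 2.57 between EHF+CDX1 and CDX1 cells and -0.18 between EHF and EV cells. For TAPBP it was 1.02, from 0.80 and -0.23 in the same 2 comparisons. The TAPBP value was 0.73 and no longer called without EV replicate 3, and the NLRC5 value was 2.37 and was called. With 3 libraries in each line no library was tested as an outlier, and EV replicate 3, which lay 1.57 to 2.83 times above the other EV libraries in these genes, was not tested for a cause.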

How the results depend on the processing

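The counts of called members against EV depended on EV replicate 3. The lowest read numbers behind them were those of NLRC5, at most 122 in a CDX1 library. Leaving out 1 library or replicate number moved the count of induced members between 0 and 2 in EHF against EV, 0 and 4 in CDX1 against EV, 0 and 7 in EHF+CDX1 against EV, 1 and 3 in EHF+CDX1 against CDX1 and 1 and 2 in the interaction, and the count of repressed members between 1 and 2 in CDX1 against EV, 0 and 1 in EHF+CDX1 against CDX1 and 0 and 2 in the interaction. The highest count of induced members against EV came each time without EV replicate 3. The test against no change gave 1 induced member in EHF and 3 in EHF+CDX1 against EV, 4 induced and 1 repressed in EHF+CDX1 against CDX1, and 1 repressed in the interaction. By that test 14.9% of all genes were higher in EHF and 16.9% in EHF+CDX1 against EV. Of the 15853 genes tested, 5531 were higher and 5122 lower in EHF+CDX1 against CDX1, and 4493 were lower in the interaction. The remaining counts here are given without such shares and show only how far the member counts moved. In CDX1 against EV 0 members were induced with library size only, DESeq2, both limma analyses and only the libraries of the lines compared, and DESeq2 called 1 repressed. In EHF+CDX1 against CDX1 4 were induced with library size only, and 3 with both limma analyses and with only the libraries compared. In the interaction 1 was induced with DESeq2, with limma on log2 RPKM and with the replicate block. Same-numbered libraries deviated from their line means with correlations of -0.0653 to 0.0802 and 0 of 18 pairs over 0.1, so they share only a number, and the block moved no other count of called members.

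Sign changes touched only members called in neither analysis. With library size only they were TAP1 in CDX1 against EV (-0.12), HLA-C in EHF+CDX1 against EV (0.0162), HLA-B (0.00339) and HLA-F (0.21) in EHF+CDX1 against CDX1, and HLA-B (0.22) and B2M (0.20) in the interaction. With limma voom they were HLA-B in EHF against EV (0.0127), HLA-C in EHF+CDX1 against EV (0.21), HLA-B in EHF+CDX1 against CDX1 (0.11), and HLA-B (0.10) and B2M (0.19) in the interaction. With log2 RPKM they were HLA-C in EHF+CDX1 against EV (0.19), HLA-B in EHF+CDX1 against CDX1 (0.11), and HLA-B (0.13) and B2M (0.21) in the interaction, and with the replicate block HLA-C in EHF+CDX1 against EV (0.00418). With libraries left out, log2 values in EHF against EV ran from -0.54 to 0.38 for HLA-B, -0.44 to 0.013 for HLA-C, -0.58 to 0.40 for HLA-F, -0.0157 to 0.67 for TAP2, -0.38 to 0.0692 for TAPBP and -0.35 to 0.25 for NLRC5. In CDX1 against EV they ran from -0.20 to 0.28 for HLA-C, -0.0372 to 1.06 for HLA-F and -0.38 to 0.30 for TAP2. In EHF+CDX1 against EV they ran from -0.18 to 0.73 for HLA-B, -0.16 to 0.28 for HLA-C, -0.12 to 0.86 for HLA-F and -0.35 to 0.0898 for TAPBP, and in EHF+CDX1 against CDX1 from -0.0137 to 0.0881 for HLA-C. In the interaction they ran from -0.82 to 0.28 for HLA-B, -0.0267 to 0.52 for HLA-C, -0.58 to 0.54 for HLA-F, -0.62 to 0.16 for B2M and -0.21 to 0.16 for TAP1. The cause of these shifts was not tested.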
